A study of Mus musculus with 1 sample.

Results

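The 33 genes described here code for the path from glucose to lactate and into the mitochondrion: glucose transporters, the glycolytic enzymes, lactate dehydrogenases, lactate transporters with their partner basigin, and the carriers, subunits and kinases that set pyruvate entry. They were chosen by name, as the rows of the count matrix that carry their symbols, out of 22631 rows. That rule uses no values, but the list was drawn up with earlier results of these data known. All 33 had UMIs in the kept cells. Aldoa occurs in 2 rows, of which the first was used, and the second held 3 UMIs in kept cells. The library was made from 12 control mouse testes, pooled, at embryonic day 14.5 (E14.5). The labels call the genotype WT, while the study's methods name the controls as Nr5a1 L2/L2, which carry loxP-flanked Nr5a1 alleles and no Cre transgene, and name E13.5 as well as E14.5. The mutant library, in which Cre driven by the AMH promoter removed Nr5a1 from Sertoli cells, was not analysed here. Messenger RNA was captured in droplets at its 3′ end, and a unique molecular identifier (UMI) marked each captured molecule.

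Glycolysis splits glucose into pyruvate and yields ATP without oxygen. Lactate dehydrogenase then turns pyruvate into lactate or back, as a tetramer of the A subunit (Ldha), which favours lactate formation, and the B subunit (Ldhb), which favours pyruvate formation. Pyruvate can instead pass the mitochondrial pyruvate carrier and be oxidised by the pyruvate dehydrogenase complex, which the pyruvate dehydrogenase kinases switch off. In the postnatal testis, Sertoli cells are known to take up glucose and to secrete lactate, which germ cells use as fuel. Many steps have several isozymes coded by different genes, so that cell types can run the same reaction with different products.

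After filtering, 3821 cells remained, with 54680576 UMIs and a median of 12078 UMIs per cell. They formed 16 clusters, which were named from marker lists and joined into 7 classes of at least 100 cells, that is Sertoli-like (863 cells), germ-like (249), Leydig-like (311), interstitial-like (1352), peritubular myoid-like (531), coelomic epithelium-like (149) and perivascular-like (106) cells. Erythroid-like (36), immune-like (35), endothelial-like (19) and rete testis-like (19) cells were small classes, and clusters 10 (89 cells) and 11 (62 cells) stayed unnamed. The 33 genes themselves were kept out of the variable genes used for clustering. The summed Sertoli markers reached 16243 counts per 1000000 UMIs (CPM) in Sertoli-like cells and between 84.4 and 946 CPM in the other 6 large classes. The peritubular myoid list was less selective, at 3097 CPM in its own class and 2469 CPM in perivascular-like cells. The interstitial list was as high in peritubular myoid-like cells (2748 CPM) as in interstitial-like cells (2660.3 CPM). It also reached 2172 CPM in coelomic epithelium-like and 1853 CPM in perivascular-like cells. In perivascular-like cells both lists were above the perivascular list itself (1322 CPM). UMIs from free RNA in the suspension were gauged by markers outside their own class. Amh, a Sertoli hormone, had 0.0920 to 0.567% of its Sertoli-like level in the other 6 large classes, and Ptgds, a prostaglandin synthase of Sertoli cells, 0.335 to 1.32%.

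The level of a gene in a class is its summed UMIs over the cells of the class, in CPM, with an exact Poisson 95% interval in parentheses. A share of an isozyme is its part of the UMIs of its family, with an exact (Clopper-Pearson) 95% interval. Each molecule gives 1 UMI whatever the length of its transcript, so levels were not scaled by length, but transcripts differ in how well their 3′ ends are captured. Intervals cover counting error only. With 1 library there is no replicate, cells are not replicates, and no test was made.

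The 33 genes together were highest in Leydig-like cells and next highest in Sertoli-like cells. Their summed level was 9484 CPM (9404 to 9564) in Leydig-like, 6051 CPM (6009 to 6093) in Sertoli-like and 4726 CPM (4645 to 4808) in coelomic epithelium-like cells. It was 4087 CPM (4039.9 to 4134) in peritubular myoid-like, 3728 CPM (3687 to 3768) in germ-like, 3596 CPM (3564 to 3628) in interstitial-like and 3259.6 CPM (3162 to 3359) in perivascular-like cells. The 7 intervals did not overlap on this scale. Relative to interstitial-like cells the sum was 2.64-fold in Leydig-like cells, 1.68-fold in Sertoli-like cells and 1.04-fold in germ-like cells. The sum joins unlike parts. In Sertoli-like against interstitial-like cells, the glycolytic enzymes had 3285 against 2080 CPM and the lactate dehydrogenases 1637 against 433 CPM. Transporters with basigin had 746 against 583 CPM, and the control kinases 55.3 against 45.01 CPM. The carriers and subunits of pyruvate entry went the other way, at 327 against 456 CPM. The order depends in part on the scale. Scaling by the median ratio of genes instead divides germ-like levels by 0.8545 and peritubular myoid-like levels by 1.0205, which places the germ-like sum above the peritubular myoid-like one. Germ-like cells were the deepest (median 36054 UMIs, against 9289 in interstitial-like cells) and held 131 UMIs of the 33 genes per cell, against 35.7 in interstitial-like, 90.8 in Sertoli-like and 174 in Leydig-like cells. More RNA per cell and deeper capture of a cell cannot be told apart here.

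The 2 Leydig-like clusters stood apart from each other. Cluster 8 (128 cells), led by the steroidogenic genes Cyp11a1, Cyp17a1, Star and Hsd3b1, had a sum of 10857 CPM (10743 to 10972). Cluster 6 (183 cells), led by Nppc and Vsnl1, had 7729 CPM (7621 to 7839), and its summed Leydig markers were 8267 CPM against 32661 CPM in cluster 8. Hemoglobin genes took 1.04% of the UMIs of cluster 8 and 0.187% of cluster 6, and the summed Sertoli markers were 1449 CPM in cluster 8 (5 of 11 seen in 25% of cells, 1 at 0) and 303 CPM in cluster 6. Amh was 0.309% of its Sertoli-like level in Leydig-like cells and Ptgds 1.32%, the highest residual among the class markers checked. The part of other cells' RNA in the sum was not tested. Without cells at 1% hemoglobin or more the ratio of Leydig-like to interstitial-like cells was 2.65. In cells thinned to 5000 UMIs, the median cell of cluster 8 had 10400 CPM in the 33 genes (5th to 95th percentile 7200 to 16350, 126 cells), above the 95th percentile of Sertoli-like cells (8600, 847 cells). The median of cluster 6 was 7200 and that of Sertoli-like cells 6000, with wide overlap between the cells of both.

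**Figure D1:**
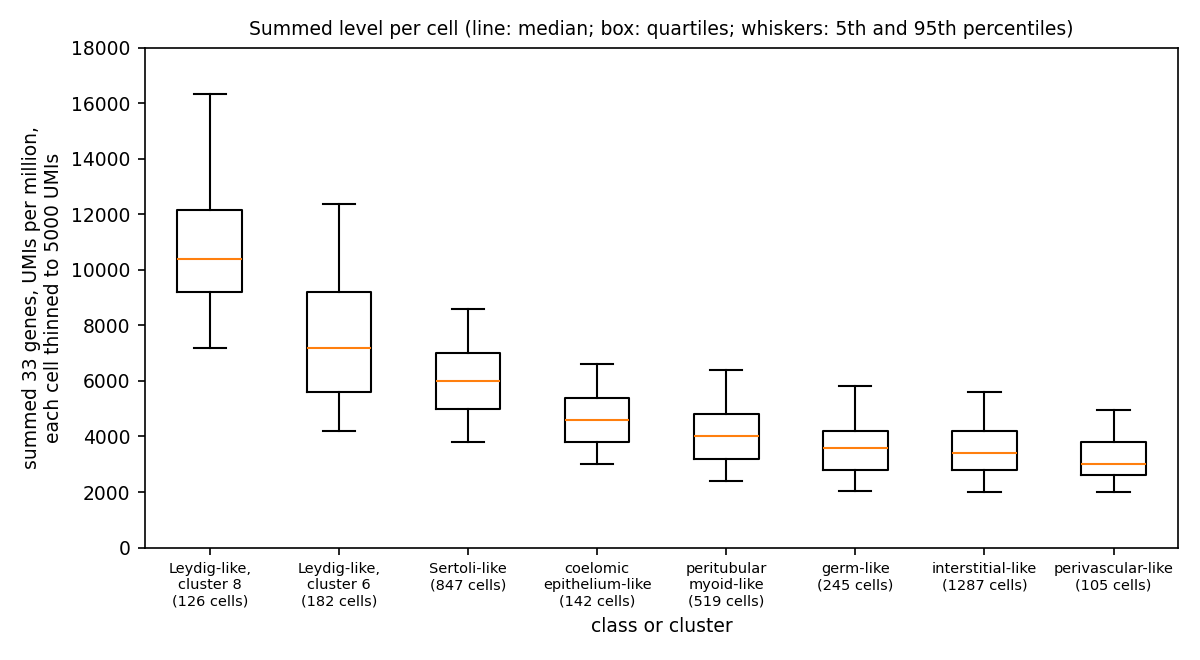
Summed level of the 33 genes in single cells, each thinned to 5000 UMIs, as CPM (y axis), for the 2 Leydig-like clusters and the other 6 large classes (x axis); lines are medians, boxes quartiles, whiskers the 5th and 95th percentiles over cells of 1 library. The medians run from 10400 in cluster 8 to 3000 in perivascular-like cells, and the box of cluster 8 lies above the whisker of Sertoli-like cells.

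Each large class was then set against the equal-weight mean of the other 6, with 5 CPM added to both, among genes at 10 CPM or more on either side. Folds and log2 ratios of single genes against the other classes, given below, include these 5 CPM unless an alternative is named. They are therefore smaller than the ratios of the printed levels. In Leydig-like cells 10 of 28 measurable members were at least 2-fold higher (Aldoa, Aldoc, Tpi1, Gapdh, Pgk1, Pgam1, Eno1, Ldha, Ldhb and Pdk2), against 7.28% of all genes, and 0 were 2-fold lower, against 13.2%. Without cluster 8, 3 of them (Aldoa, Tpi1 and Ldhb) were still past 2-fold, and without cluster 6 the count was 13. In Sertoli-like cells 4 of 26 were higher (Hk1, Hk2, Ldhb and Slc16a3; 10.5% of all genes) and 1 was lower (Pdha1; 11.1%). In germ-like cells 6 of 27 were lower (Hk1, Pfkl, Tpi1, Pgk1, Ldha and Slc16a3), a share below the 28.1% of all genes, and 1 was higher (Pdk1; 14.3%). The median log2 ratio of the measurable members was 0.48 in Leydig-like cells, -0.09 in Sertoli-like cells and -0.41 in germ-like cells, beside -0.21, 0.01 and -0.20 for all genes tested.

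The other 4 large classes had few members above the rest. In interstitial-like cells 0 of 26 members were 2-fold higher (3.27% of all genes) and 4 were lower (Aldoc, Eno1, Ldhb and Slc16a1; 6.05%). In peritubular myoid-like cells 0 of 26 were higher (2.52%) and 3 were lower (Aldoa, Aldoc and Ldhb; 6.56%). In coelomic epithelium-like cells 1 of 28 was higher (Slc16a1; 4.6%) and 2 were lower (Aldoa and Aldoc; 6.8%). In perivascular-like cells 1 of 27 was higher (Pfkp; 4.03%) and 7 were lower (Hk2, Aldoa, Aldoc, Ldhb, Slc16a1, Slc16a3 and Pdk1; 7.2%). Aldoa, Aldoc and Ldhb recur on the lower side, and the mean that they were set against includes the Leydig-like level each time. Over the 7 classes, the ratio of the highest to the lowest level, for the 31 members seen in all of them, ran from 1.56 (Mpc2) to 90 (Slc16a3). The interval of the highest class was apart from that of the next highest class in 20 of 33 members.

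**Figure D2:**
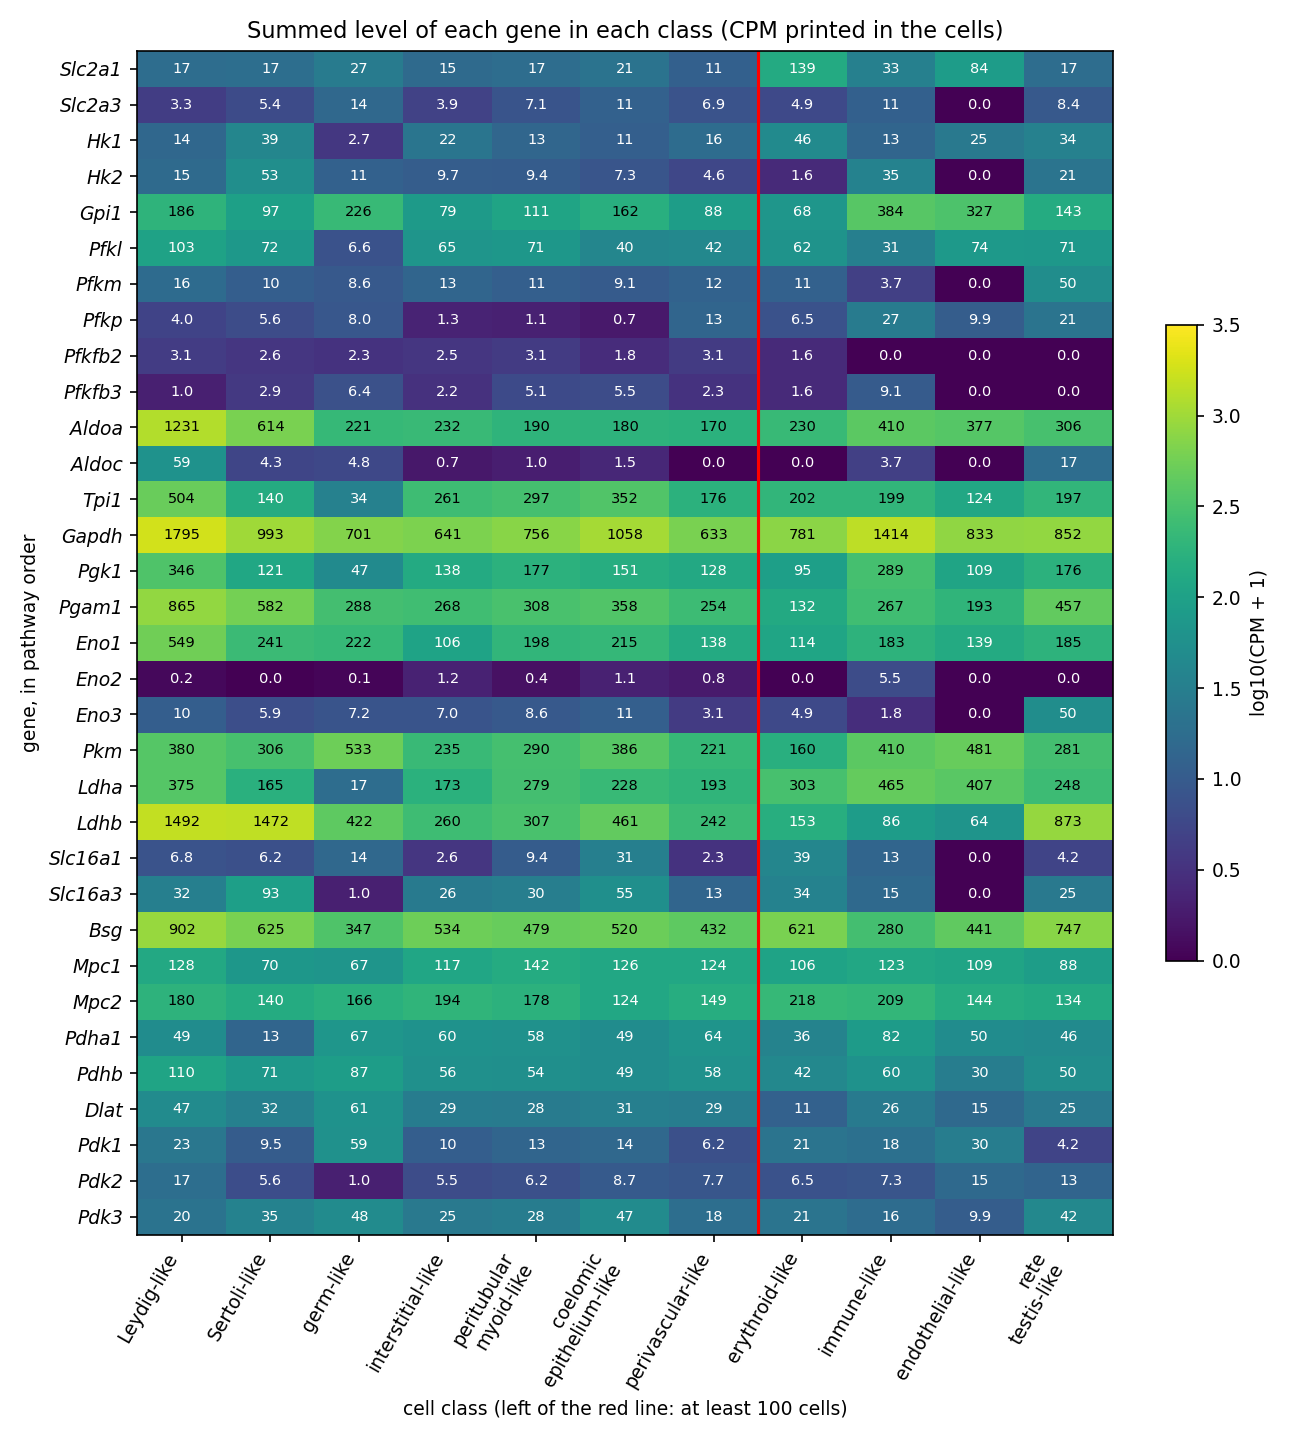
Level of each of the 33 genes (y axis, in pathway order) in the 11 named classes (x axis), as CPM printed in each cell and as colour on a log10(CPM + 1) scale; the 4 classes right of the red line have fewer than 100 cells. The Leydig-like column is brightest from Aldoa to Eno1, and the germ-like column is dark at Hk1, Pfkl, Tpi1, Ldha and Slc16a3.

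Glucose enters cells through the facilitative transporters GLUT1 (Slc2a1) and GLUT3 (Slc2a3). Slc2a1 was low in the large classes, at 27.5 in germ-like, 20.7 in coelomic epithelium-like, 17.4 in Sertoli-like, 17.1 in peritubular myoid-like, 16.8 in Leydig-like, 15.3 in interstitial-like and 10.8 CPM in perivascular-like cells. Higher levels were found in 2 small classes, with 139 CPM (111 to 171) in erythroid-like and 84.3 CPM (49.1 to 135) in endothelial-like cells, which rest on 85 and 17 UMIs. Slc2a3 was highest in germ-like cells, at 14.3 CPM (11.9 to 17.05). Slc2a1 was the leading transporter in all 7 large classes, with shares from 60.9% (38.5 to 80.3) in perivascular-like to 83.5% (75.4 to 89.7) in Leydig-like cells.

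Hexokinase traps glucose in the cell as glucose 6-phosphate, and its 2 isozymes measured here, Hk1 and Hk2, differed by class. Hk2 was 52.9 in Sertoli-like, 15.2 in Leydig-like, 11.2 in germ-like, 9.67 in interstitial-like, 9.45 in peritubular myoid-like, 7.28 in coelomic epithelium-like and 4.61 CPM in perivascular-like cells. Sertoli-like cells thus stood alone, 3.97-fold above the mean of the others (1.99 on the log2 scale). Hk1 was 39.1 in Sertoli-like, 21.9 in interstitial-like, 16.1 in perivascular-like, 13.6 in Leydig-like, 13.3 in peritubular myoid-like, 10.6 in coelomic epithelium-like and 2.75 CPM in germ-like cells, so that Sertoli-like cells were highest here too. The Hk2 share was 80.3% (72.2 to 86.97) in germ-like and 57.5% (54.6 to 60.3) in Sertoli-like cells, and 30.6% (26.2 to 35.2) in interstitial-like cells, where Hk1 led. The germ-like share rests on 122 UMIs, and the total of both genes was low there. In erythroid-like cells Hk1 had 96.6% of the pair, and in immune-like cells Hk2 had 73.1%.

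Glucose phosphate isomerase (Gpi1), which converts glucose 6-phosphate to fructose 6-phosphate, was 226 in germ-like, 186 in Leydig-like, 162 in coelomic epithelium-like, 111 in peritubular myoid-like, 97.3 in Sertoli-like, 87.6 in perivascular-like and 79.3 CPM in interstitial-like cells. Phosphofructokinase then makes the committed step, with a liver (Pfkl), muscle (Pfkm) and platelet (Pfkp) isozyme. Pfkl was the main isozyme in 6 of the 7 large classes, with 62.8 to 85.8% of the UMIs. Its level was 103 in Leydig-like, 71.9 in Sertoli-like, 70.8 in peritubular myoid-like, 65.02 in interstitial-like, 41.5 in perivascular-like, 40.03 in coelomic epithelium-like and 6.64 CPM in germ-like cells. In germ-like cells Pfkl was 6.04-fold below the mean of the others, with 5 CPM added to both. Pfkm was 8.58 CPM there against 9.10 to 15.9 CPM in the others, and Pfkp 8.01 against 0.728 to 13.1 CPM. The family there was divided into 28.6% (22.5 to 35.3) Pfkl, 36.9% (30.3 to 43.98) Pfkm and 34.5% (27.97 to 41.5) Pfkp, over 203 UMIs, and these 3 intervals overlap. Pfkp was otherwise visible in perivascular-like cells, with 19.8% (11.96 to 29.8) of 86 UMIs, and in immune-like cells, with 44.1% (27.2 to 62.1) of 34 UMIs. The bifunctional enzymes Pfkfb2 and Pfkfb3, which set the level of an activator of phosphofructokinase, stayed under 10 CPM in every named class.

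Aldolase A (Aldoa) splits the sugar into its triose phosphates. Its level was 1231 in Leydig-like, 614 in Sertoli-like, 232 in interstitial-like, 221 in germ-like, 190.1 in peritubular myoid-like, 179.8 in coelomic epithelium-like and 169.9 CPM in perivascular-like cells, and within Leydig-like cells 1595 CPM in cluster 8 and 766 CPM in cluster 6. Aldolase C (Aldoc), an isozyme best known from brain, was almost limited to Leydig-like cells, at 59.3 CPM (53.1 to 65.9) with 339 UMIs. It was 101 CPM in cluster 8 and 5.97 CPM in cluster 6, at most 4.81 CPM in the other 6 large classes, and not seen in perivascular-like cells (0 of 1300788 UMIs, which allows up to 2.84 CPM). Even in cluster 8, Aldoc was 5.96% (5.34 to 6.62) of the aldolase UMIs.

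Of the triose and phosphoglycerate steps, triose phosphate isomerase (Tpi1) varied most. Its level was 504 in Leydig-like, 352 in coelomic epithelium-like, 297 in peritubular myoid-like, 261 in interstitial-like, 176 in perivascular-like, 140.1 in Sertoli-like and 33.8 CPM in germ-like cells. Germ-like cells were 7.57-fold below the mean of the others, and Sertoli-like cells were the next lowest. Phosphoglycerate kinase 1 (Pgk1), an X-linked gene and the first ATP-forming step, had the same bottom: 346 in Leydig-like, 177 in peritubular myoid-like, 151 in coelomic epithelium-like, 138 in interstitial-like, 128 in perivascular-like, 121 in Sertoli-like and 46.6 CPM in germ-like cells. Glyceraldehyde-3-phosphate dehydrogenase (Gapdh), the step between them, was not low in germ-like cells to that degree, at 701 CPM (683 to 718) against 641 CPM (628 to 655) in interstitial-like and 1795 CPM (1761 to 1830.4) in Leydig-like cells.

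Phosphoglycerate mutase 1 (Pgam1) was 865 CPM (841 to 889.6) in Leydig-like and 582 CPM (569 to 595) in Sertoli-like cells, and between 254 and 358 CPM in the other 5 large classes. Enolase 1 (Eno1) was 549 in Leydig-like, 241 in Sertoli-like, 222 in germ-like, 215 in coelomic epithelium-like, 198 in peritubular myoid-like, 138 in perivascular-like and 106 CPM in interstitial-like cells. In cluster 8 it reached 777 CPM (747 to 808), against 258 CPM in cluster 6. Eno1 was the main enolase everywhere, with 92.8 to 98.2% of the family in the large classes. The neuronal enolase Eno2 had 0 UMIs in Sertoli-like cells, which allows up to 0.285 CPM, and at most 1.19 CPM in the others. The muscle enolase Eno3 did not exceed 10.6 CPM, except in the 19 rete testis-like cells with 50.4 CPM (26.03 to 87.98) from 12 UMIs. Pyruvate kinase (Pkm), the last step of glycolysis, ran against this order, since its highest level was 533 CPM (518 to 549) in germ-like cells. The next were coelomic epithelium-like (386 CPM) and Leydig-like cells (380.2 CPM). The counts join both splice forms of Pkm, which cannot be told apart here. Germ-like cells were thus highest for Gpi1 and Pkm and lowest for Hk1, Pfkl, Tpi1 and Pgk1, genes of the same path.

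**Figure D3:**
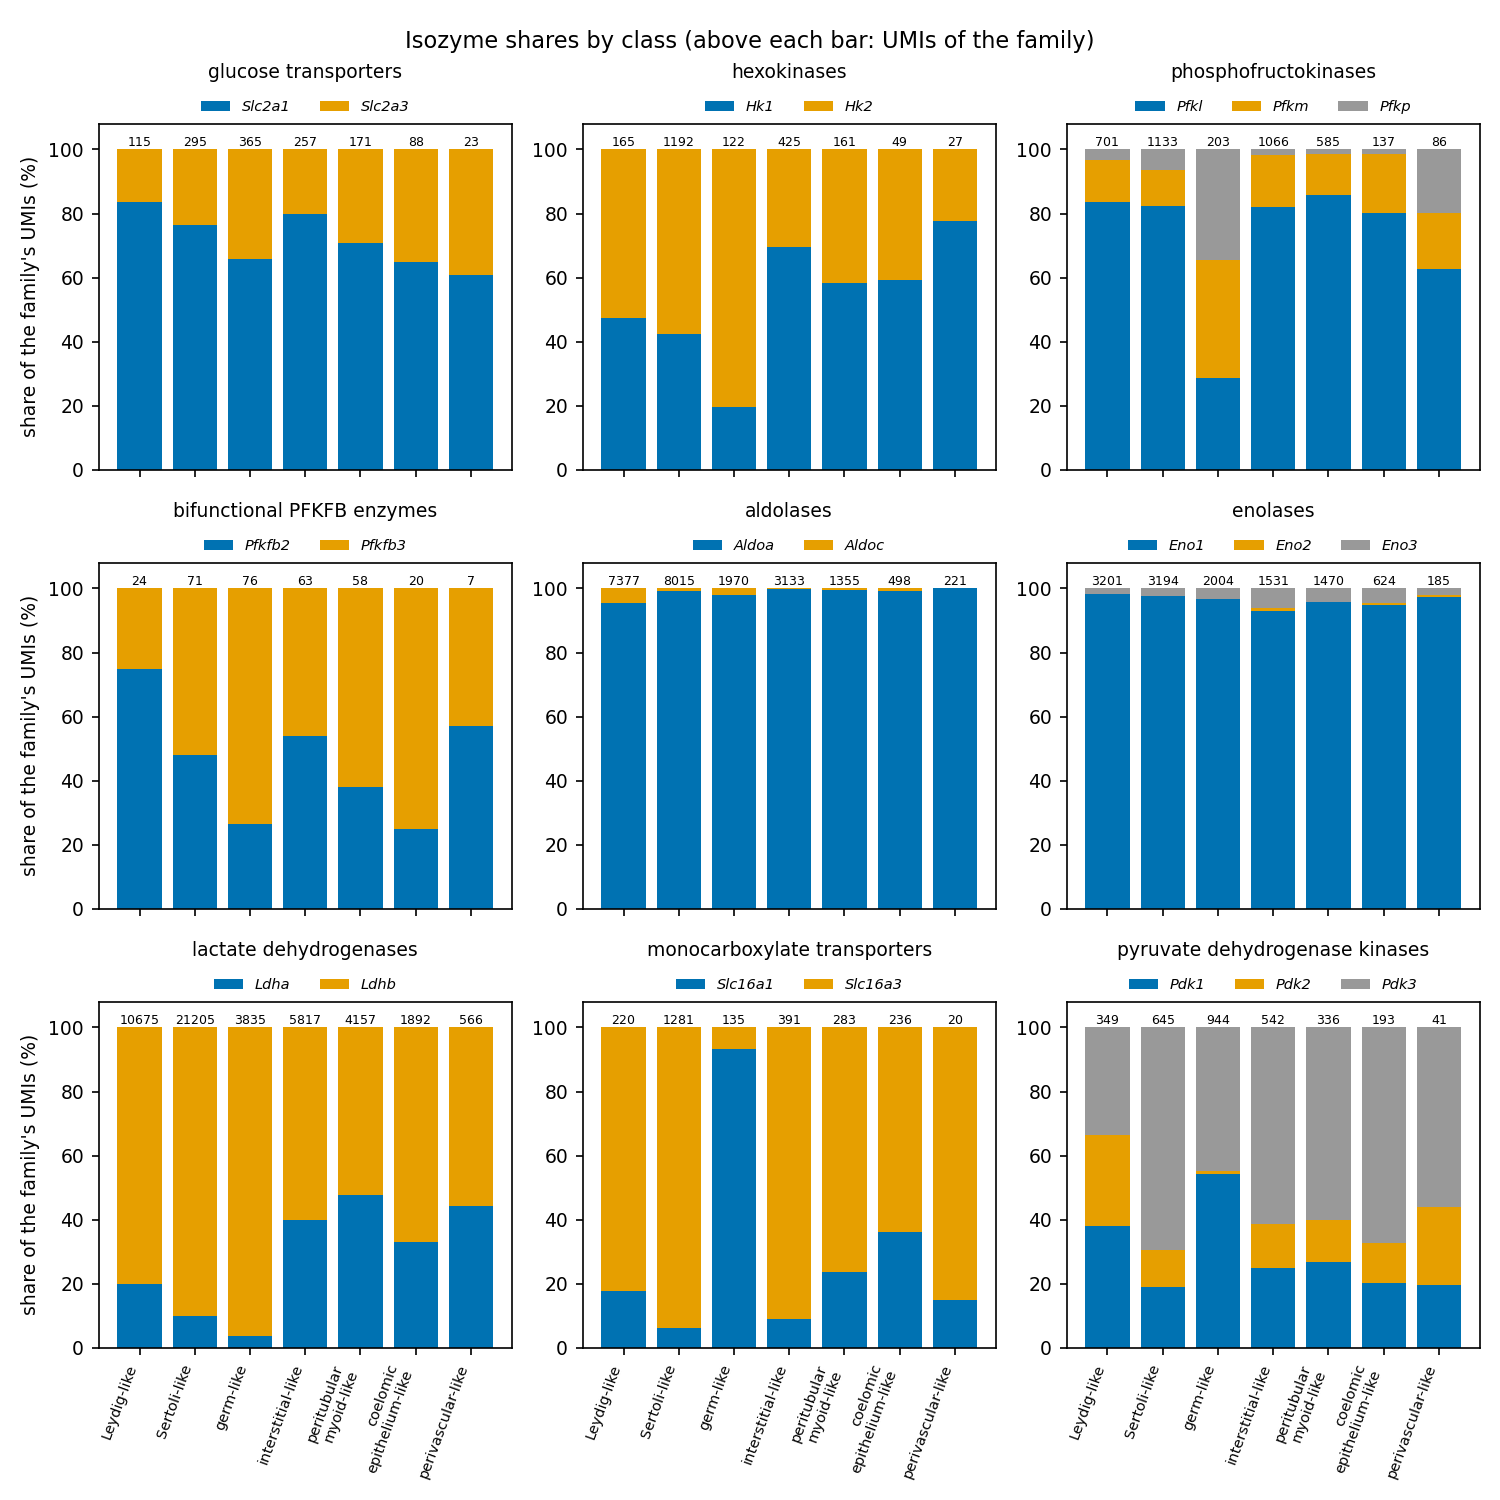
Share of each isozyme (y axis, % of the family's UMIs) in the 7 large classes (x axis) for 9 families; the number above a bar counts the UMIs of the family in that class. Germ-like cells differ from the rest in the hexokinase, phosphofructokinase and monocarboxylate transporter panels, and Ldhb takes 52.3 to 96.2% of the lactate dehydrogenase UMIs.

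The lactate dehydrogenases divided the classes by isozyme. Ldhb was 1492 in Leydig-like, 1472 in Sertoli-like, 461 in coelomic epithelium-like, 422 in germ-like, 307 in peritubular myoid-like, 260.2 in interstitial-like and 242 CPM in perivascular-like cells. Taken as whole classes, Leydig-like (1492 CPM, 1461 to 1524) and Sertoli-like cells (1472 CPM, 1451 to 1493) did not differ beyond counting error. The Leydig-like level joins unlike clusters, however. Ldha and Ldhb together were 2068 CPM (2012 to 2125) in cluster 6 and 1710 CPM (1665 to 1756) in cluster 8. In Sertoli-like cells the pair had 1637 CPM (1615 to 1659). Ldhb also had the larger share of the pair in cluster 6, so its level was higher there than in cluster 8. Ldha was 375 in Leydig-like, 279 in peritubular myoid-like, 228 in coelomic epithelium-like, 193 in perivascular-like, 173 in interstitial-like, 165 in Sertoli-like and 16.6 CPM in germ-like cells. Germ-like cells had 145 UMIs of Ldha and 3690 of Ldhb, which put Ldha 11.1-fold below the mean of the other classes (-3.48 on the log2 scale). This was 4.43% of the Leydig-like level, above the 1.32% that was the highest residual level of the 7 class markers checked for free RNA. That residual was Ptgds in Leydig-like cells. The percentages are not alike, since each marker belongs mainly to 1 class, while every other large class had Ldha. The part of free RNA in the germ-like Ldha was not tested.

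The Ldhb share was 96.2% (95.6 to 96.8) in germ-like, 89.9% (89.5 to 90.3) in Sertoli-like and 79.9% (79.2 to 80.7) in Leydig-like cells. It was 66.9% (64.7 to 69.03) in coelomic epithelium-like, 60.1% (58.9 to 61.4) in interstitial-like, 55.7% (51.5 to 59.8) in perivascular-like and 52.3% (50.8 to 53.9) in peritubular myoid-like cells. The first 4 of these classes had intervals apart from each other and from the rest. Ldha led only outside the large classes, with an Ldhb share of 33.6% (28.1 to 39.4) in erythroid-like, 15.6% (11.7 to 20.2) in immune-like and 13.7% (7.49 to 22.3) in endothelial-like cells. Rete testis-like cells had 77.9% (72.4 to 82.7), an interval that holds the Leydig-like share and lies below that of Sertoli-like cells. The unnamed cluster 11, whose best list was the Sertoli list but whose cells were shallow (median 3148 UMIs), had 87.4% (84.2 to 90.1).

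The division held in single cells. Among cells with at least 5 UMIs of the pair, Ldhb was over 50% in 840 of 840 Sertoli-like cells and in 196 of 198 germ-like cells. The same was so in 278 of 304 Leydig-like and 111 of 132 coelomic epithelium-like cells, but in 321 of 536 interstitial-like, 200 of 379 peritubular myoid-like and 28 of 53 perivascular-like cells, and in 1 of 23 immune-like cells. The median Ldhb share per cell was 91.3% in Sertoli-like cells (quartiles 84.96 and 95.7%) and 54.5% in peritubular myoid-like cells (quartiles 40 and 66.7%). Shares of cells with few UMIs scatter by counting alone, so the spread within a class was not read further. The 2 Leydig-like clusters differed in the pair as well: Ldhb was 84.5% (83.4 to 85.4) of the UMIs in cluster 6 and 75.6% (74.5 to 76.8) in cluster 8.

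**Figure D4:**
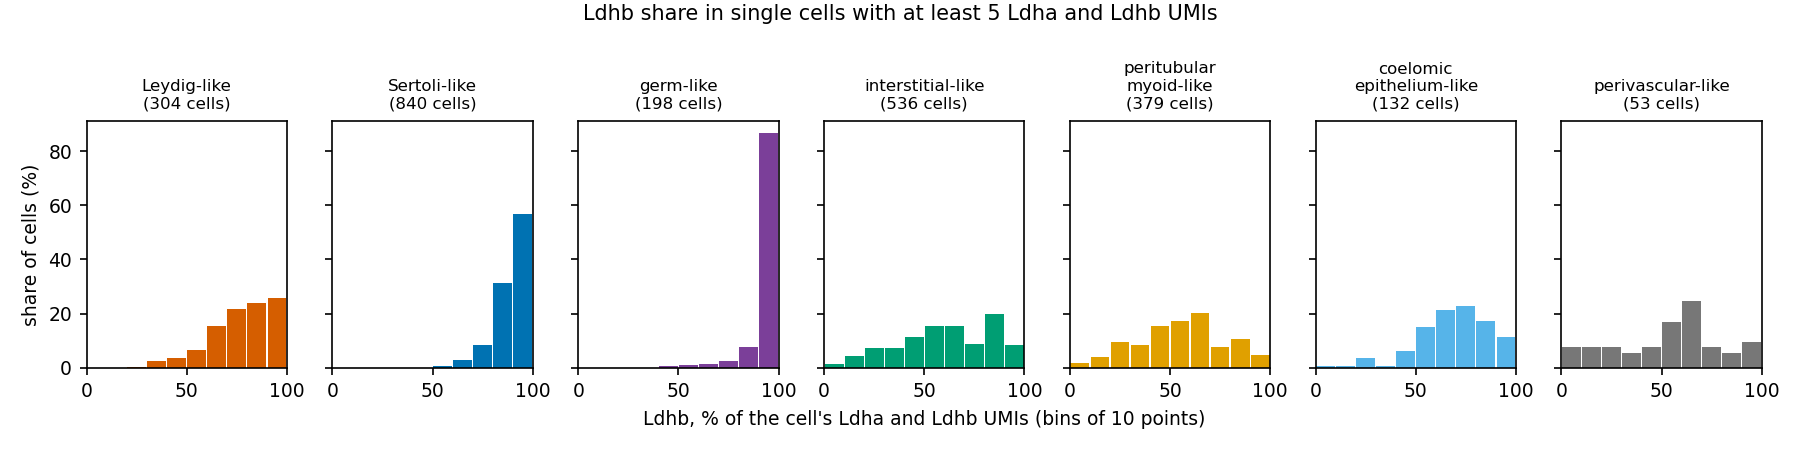
Distribution of the Ldhb share over single cells (x axis, % of the cell's Ldha and Ldhb UMIs in bins of 10 points; y axis, % of the cells shown) in the 7 large classes, for cells with at least 5 UMIs of the pair. Sertoli-like and germ-like cells pile up at the right end, and interstitial-like, peritubular myoid-like and perivascular-like cells spread across the whole axis.

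Lactate leaves and enters cells with a proton through monocarboxylate transporters, of which MCT4 (Slc16a3) is known mainly for export and MCT1 (Slc16a1) for transport in either direction. Slc16a3 was 92.7 in Sertoli-like, 54.95 in coelomic epithelium-like, 31.7 in Leydig-like, 30.5 in peritubular myoid-like, 26.5 in interstitial-like, 13.1 in perivascular-like and 1.03 CPM in germ-like cells. Sertoli-like cells were 3.12-fold above the mean of the others. Germ-like cells held 9 UMIs of Slc16a3, 1.11% of the Sertoli-like level, beside 0.710% for Ptgds and 0.567% for Amh in the same cells. These percentages are not alike, since Amh and Ptgds belong mainly to Sertoli-like cells, while every other large class had Slc16a3. The part of free RNA in these few UMIs was not tested. Slc16a1 was 30.9 in coelomic epithelium-like, 14.4 in germ-like, 9.45 in peritubular myoid-like, 6.82 in Leydig-like, 6.18 in Sertoli-like, 2.60 in interstitial-like and 2.31 CPM in perivascular-like cells. Germ-like cells were second here, with 126 UMIs, and above Sertoli-like cells (14.4 CPM, 12.01 to 17.2, against 6.18 CPM, 4.90 to 7.69).

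The share of the pair was thus turned around between Sertoli-like and germ-like cells. In the testis cords, Sertoli cells enclose the germ cells. Slc16a3 made up 93.8% (92.3 to 95.02) of the 2 transporters in Sertoli-like cells and 6.67% (3.09 to 12.3) in germ-like cells. It was 91.05% (87.8 to 93.7) in interstitial-like, 82.3% (76.6 to 87.1) in Leydig-like and 63.98% (57.5 to 70.1) in coelomic epithelium-like cells. Basigin (Bsg), the membrane partner that both transporters need to reach the cell surface, was abundant in all 7 classes, from 347 CPM (335 to 359) in germ-like to 902 CPM (877 to 927) in Leydig-like cells. Embigin (Emb), another membrane partner of monocarboxylate transporters, was 62.03 CPM in germ-like and 7.10 CPM in Sertoli-like cells. It was at most 3.08 CPM in the other 5 large classes, with 264 CPM in immune-like cells.

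The promoters of the Ldha and Ldhb pair and of the Slc16a1 and Slc16a3 pair are shown. They were picked because their short motifs differ within the pairs, so that difference is not itself a result. Other families that divided the classes, such as the hexokinases and phosphofructokinases, are not shown. A link of motifs to levels was not tested. RefSeq windows on GRCm38.p6 run from 250 bases before to 50 after the transcript start and were found for 31 of the 33 genes, all but Slc2a3 and Bsg. Only the first listed window of a gene was used, so any other transcript start was not looked at. Capitals mark ACGTG and GCGTG, the core letters of the hypoxia response element, on either strand, and the palindrome CACGTG counts once on each strand. The Ldha window (chr7:46845554-46845853, plus strand) lies inside the gene as GENCODE draws it, which starts further upstream, as does that of Slc16a3 (chr11:120948817-120949116, plus strand). The Ldhb window (chr6:142507908-142508207, minus strand) and the Slc16a1 window (chr3:104638414-104638713, plus strand) lie across the GENCODE gene start.
Ldha: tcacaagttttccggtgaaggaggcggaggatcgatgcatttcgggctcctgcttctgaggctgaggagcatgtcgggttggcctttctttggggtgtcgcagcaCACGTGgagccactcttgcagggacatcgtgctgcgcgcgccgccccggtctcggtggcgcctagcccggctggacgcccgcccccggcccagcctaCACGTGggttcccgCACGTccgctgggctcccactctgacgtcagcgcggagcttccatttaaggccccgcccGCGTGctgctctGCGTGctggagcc
Ldhb: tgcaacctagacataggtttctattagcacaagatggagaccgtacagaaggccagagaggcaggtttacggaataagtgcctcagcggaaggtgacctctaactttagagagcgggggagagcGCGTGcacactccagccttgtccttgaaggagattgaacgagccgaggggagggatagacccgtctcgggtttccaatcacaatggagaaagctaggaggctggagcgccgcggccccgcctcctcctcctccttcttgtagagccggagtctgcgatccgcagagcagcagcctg
Slc16a1: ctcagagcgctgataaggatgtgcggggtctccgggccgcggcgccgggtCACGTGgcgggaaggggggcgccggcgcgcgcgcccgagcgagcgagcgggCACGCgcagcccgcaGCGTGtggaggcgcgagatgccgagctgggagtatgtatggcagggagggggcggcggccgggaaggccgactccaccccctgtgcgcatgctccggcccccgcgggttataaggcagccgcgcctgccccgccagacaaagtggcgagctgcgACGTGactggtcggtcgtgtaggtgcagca
Slc16a3: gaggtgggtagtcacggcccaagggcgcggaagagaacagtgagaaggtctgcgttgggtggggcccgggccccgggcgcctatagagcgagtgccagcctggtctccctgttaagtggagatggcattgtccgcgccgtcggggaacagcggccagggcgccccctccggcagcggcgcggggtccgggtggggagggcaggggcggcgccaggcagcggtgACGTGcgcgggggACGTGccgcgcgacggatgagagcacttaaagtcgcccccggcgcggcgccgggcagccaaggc

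The Ldha window held 5 matches to ACGTG and 2 to GCGTG, and that of Ldhb 0 and 1. Slc16a1 had 3 and 2, and Slc16a3 2 and 0. ACGTG was present in 15 of 31 member windows (48.4%), against 19.7% of all 27025 windows, and GCGTG in 18 (58.1% against 32.5%). Both motifs contain the pair CG, and member windows were richer in it, with a median of 21 CG pairs and 64.7% G or C, against 7 and 52.7% over all windows. The part of base composition in these counts was not tested. Either motif was present in 24 of 31 member windows (77.4%) and in 43.8% of all windows. Of the 6 members 2-fold lower in germ-like cells, 4 had a motif in their window (Pfkl, Pgk1, Ldha and Slc16a3) and 2 had neither (Hk1 and Tpi1). These 6 are among the 31 members and were picked by their levels in these data, so nothing is concluded from this count. CAAGGTCA, a motif bound by NR5A1, was in 0 member windows and in 1.53% of all windows. At so low a share, 0 among 31 windows carries little information. Only this exact word was sought, in 1 window per gene, so other NR5A1 sites were not looked for. From earlier work, the study lists Hk1, Aldoa, Pgam1 and Eno1, all members, as genes with NR5A1-responsive elements.

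**Figure D5:**
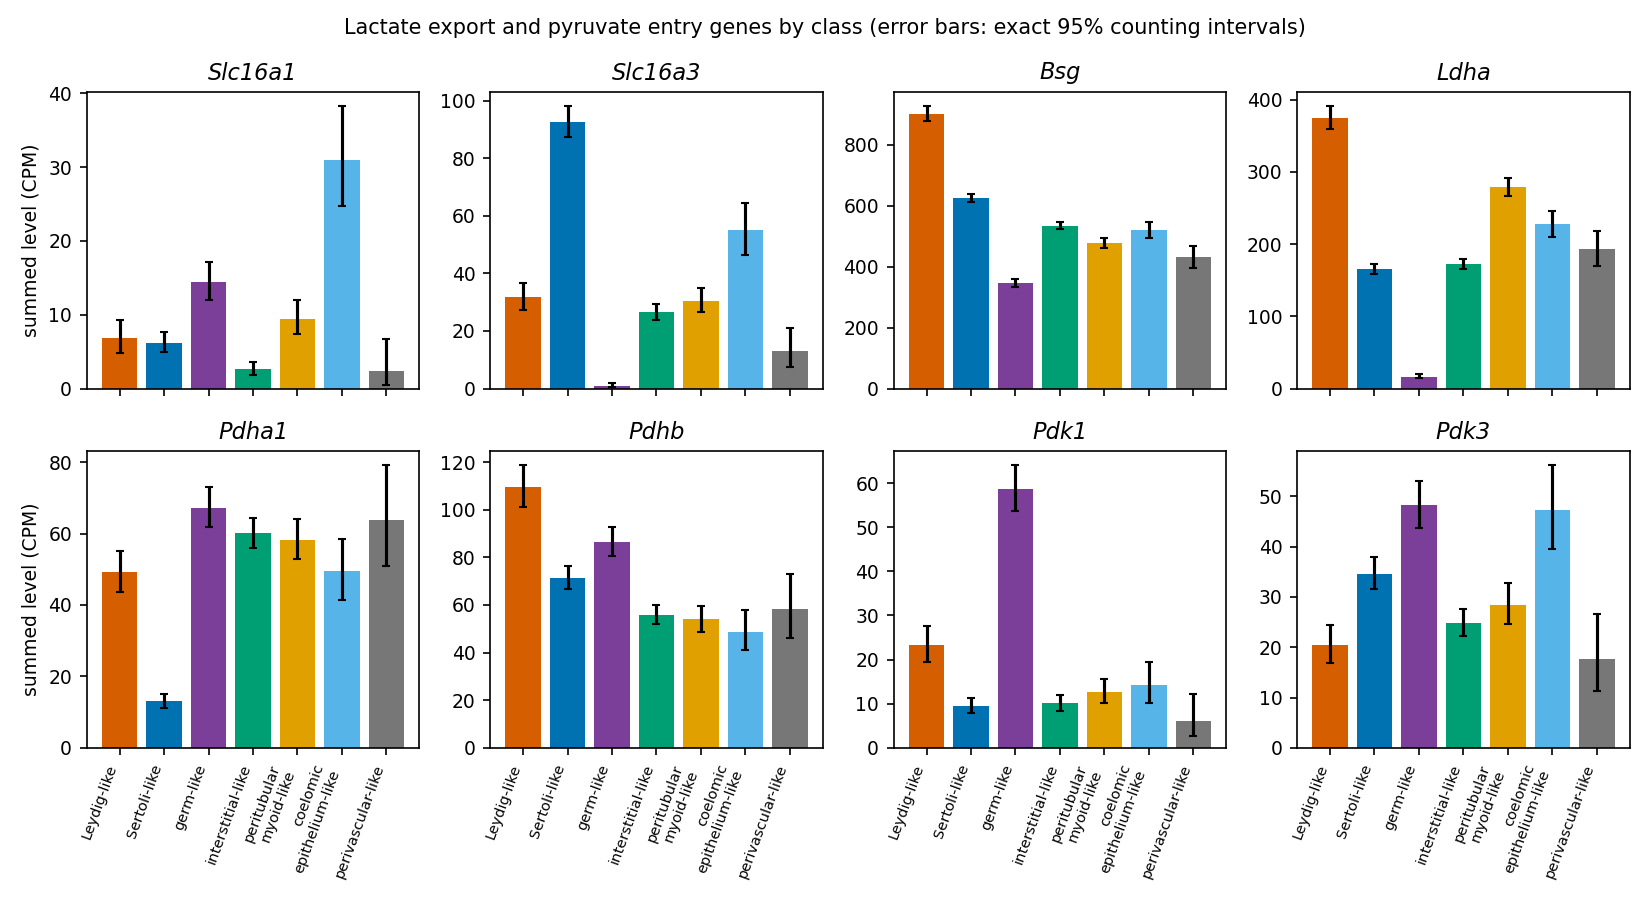
Level (y axis, CPM; bars start at 0, and scales differ between panels) of 8 genes of lactate formation and transport and of pyruvate entry in the 7 large classes (x axis); error bars are exact Poisson 95% intervals of 1 library. Slc16a3 is highest and Pdha1 lowest in Sertoli-like cells, and Ldha and Slc16a3 are lowest and Pdk1 highest in germ-like cells.

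Pyruvate reaches the mitochondrial matrix through the carrier subunits Mpc1 and Mpc2, which form a heterodimer. Mpc2 was the most even of the 31 genes seen in all 7 classes, between 124 CPM in coelomic epithelium-like and 194 CPM in interstitial-like cells. Mpc1 was 70.2 CPM in Sertoli-like and 66.8 CPM in germ-like cells, and between 117 and 142 CPM in the other 5 large classes, with intervals apart from both. Sertoli-like and germ-like cells thus had the lowest Mpc1, while their Mpc2 (140.3 and 166 CPM) lay within the range of the others.

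The pyruvate dehydrogenase complex joins an E1 enzyme (Pdha1 and Pdhb) with the E2 core (Dlat). Pdha1, the X-linked alpha subunit of E1, was 67.3 in germ-like, 63.8 in perivascular-like, 60.04 in interstitial-like, 58.2 in peritubular myoid-like, 49.5 in coelomic epithelium-like, 49.1 in Leydig-like and 12.97 CPM in Sertoli-like cells. Sertoli-like cells, with 168 UMIs in 863 cells, were 3.51-fold below the mean of the others, and the interval of 12.97 CPM (11.1 to 15.1) was apart from all. Cluster 11 had 12.5 CPM (2.57 to 36.4) from 3 UMIs, and rete testis-like cells had 46.2 CPM (23.05 to 82.6) from 11 UMIs. The other subunits lay within the range of the other classes. Pdhb, the beta subunit of E1, was 71.4 CPM there and 48.8 to 109.6 CPM in the other classes. Dlat was 32.3 CPM there and 27.5 to 60.8 CPM elsewhere.

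Pyruvate dehydrogenase kinases phosphorylate E1 and switch the complex off. Pdk1 was 58.7 in germ-like, 23.3 in Leydig-like, 14.2 in coelomic epithelium-like, 12.7 in peritubular myoid-like, 10.04 in interstitial-like, 9.50 in Sertoli-like and 6.15 CPM in perivascular-like cells. Germ-like cells were 3.61-fold above the mean of the others. Pdk3, an X-linked gene, was highest in germ-like (48.3 CPM, 43.8 to 53.1) and coelomic epithelium-like cells (47.3 CPM, 39.5 to 56.2), which did not differ beyond counting error. Pdk2 was low throughout, with its highest level in Leydig-like cells at 17.3 CPM (14.1 to 21.1), where cluster 8 had 23.4 and cluster 6 9.56 CPM. The leading kinase was Pdk1 in germ-like (54.3%, 51.1 to 57.6) and Leydig-like cells (38.1%, 32.99 to 43.4), where the interval of Pdk3 (33.5%, 28.6 to 38.7) overlaps. It was Pdk3 in the other 5 large classes, with 56.1 to 69.6% of the family.

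The sum of the 33 genes was also read by cell cycle phase within each class. In cells called G1, S and G2M by expression, the sum was 6428, 6044 and 5401 CPM in Sertoli-like cells, 3575, 3795 and 3368 CPM in interstitial-like cells and 3747, 4167 and 3639 CPM in germ-like cells. In Leydig-like cells it was 10117 CPM in G1, 6243 CPM in S and 7451 CPM in G2M, and here phase goes with cluster, since 99.2% of cluster 8 and 64.5% of cluster 6 were called G1. Aldoa ranged with phase in Sertoli-like cells, from 466 CPM in G2M to 735 CPM in G1. Median depth differed with phase too, with 13110 UMIs in G1 and 18595 UMIs in G2M in Sertoli-like cells. Of germ-like cells, 19.7% were called G1, 13.7% S and 66.7% G2M, while the study describes control germ cells as becoming mitotically quiescent. Whether the calls reflect the cell cycle in germ-like cells was not tested.

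Further genes of the path, from a list of 62, showed where other isozymes add to these. Of 29 other isozymes and subunits, 1 of 7 measurable in Sertoli-like cells was 2-fold higher (all genes 10.5%), the mutase Pgam2 at 26.4 CPM (23.7 to 29.4) against at most 4.61 CPM in the other large classes. In germ-like cells 2 of 8 were higher (all genes 14.3%), Emb and Tigar, a phosphatase that opposes phosphofructokinase (39.1 CPM against at most 7.18 CPM). Germ-like cells also held the isozymes known from spermatogenesis at low levels, with 80 UMIs of Ldhc (9.16 CPM) and 31 of Pdha2 (3.55 CPM), but 0 of Gapdhs and 1 of Pgk2. In Leydig-like cells 3 of 10 were higher (all genes 7.28%), Pfkfb4 (29.2 CPM, 2.06 on the log2 scale), Pdhx (1.30) and Dld (1.14), the last 2 being further subunits of the dehydrogenase complex. Emb was the only one of these genes to be 2-fold lower, in 5 classes, where 6.05 to 13.2% of all genes were lower. The mean that Emb was set against includes the germ-like level each time. Among named classes, Hk3 was found in immune-like cells (27.4 CPM), and the erythroid-like cells had the red cell genes Pklr (48.9 CPM) and Bpgm (236 CPM).

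In neighbouring branches, some genes were 2-fold higher in Leydig-like cells, where 7.28% of all genes were. Of gluconeogenesis genes, these were 2 of 4 measurable, pyruvate carboxylase (Pcx, 56.3 CPM) and Fbp1 (26.1 CPM, 22.04 to 30.6), which had at most 0.232 CPM in the other large classes, and G6pc had 0 UMIs in every named class. Of the pentose phosphate branch, 2 of 7 were higher, G6pdx (1.25 on the log2 scale) and Pgd (2.06), enzymes that form NADPH, and the other 5 were neither higher nor lower. Of the shuttles that carry reducing power into mitochondria, 2 of 4 were higher, Mdh1 (497 CPM) and Got1 (60.3 CPM). Leydig-like calls of the further genes, other isozymes and regulators included, join the 2 unlike Leydig-like clusters. They were not recomputed without either cluster. Sertoli-like cells were 2-fold higher in 1 of 5 measurable shuttle genes, Got1 (59.9 CPM), and in 1 of 3 of gluconeogenesis, G6pc3 (50.6 CPM). None of the 7 pentose phosphate genes was higher there, and the share of all genes was 10.5%. Germ-like cells were 2-fold lower in 2 of 7 pentose phosphate genes (Tkt and Rpe) and 1 of 4 shuttle genes (Got2). They were also lower in 1 of 3 of gluconeogenesis (Pck2, 0.916 CPM). These counts stand beside 28.1% of all genes lower in germ-like cells, so they do not set these branches apart.

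Hypoxia-inducible factor (HIF1) drives many genes of this path, and its alpha subunit mRNA, Hif1a, was set beside them with other regulators and targets. Of the 12 genes of this list, 6 were measurable in Sertoli-like cells, with 1 higher (Hif1a; all genes 10.5%) and 1 lower (Vegfa; 11.1%). In Leydig-like cells 1 of 6 was higher (Bnip3; 7.28%) and 1 lower (Mycn; 13.2%). In germ-like cells 2 of 7 were lower (Hif1a and Vegfa; 28.1%). Coelomic epithelium-like cells had the most calls, with 3 of 8 higher (Egln3, Ndrg1 and Mycn; 4.6%) and 1 lower (Epas1; 6.8%). In perivascular-like cells 1 of 7 was higher (Epas1; 4.03%) and 2 were lower (Bnip3 and Mycn; 7.2%), and in interstitial-like cells 1 of 5 was lower (Bnip3; 6.05%). Hif1a was 219 CPM (211 to 228) in Sertoli-like, 104 CPM (95.4 to 112) in Leydig-like and 50.2 CPM (45.7 to 55.2) in germ-like cells, and 86.9 to 100.4 CPM in the other 4. The known hypoxia targets did not follow a single order. Bnip3 was 37.8 CPM in Leydig-like, 28.6 CPM in germ-like and 22.9 CPM in Sertoli-like cells. Vegfa was 51.9 CPM in interstitial-like, 10.2 CPM in Sertoli-like and 0.687 CPM in germ-like cells. Car9 was at most 1.16 CPM in the large classes. HIF1 is controlled mainly at the level of protein, which these data do not measure.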

How the data were processed

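UMI counts per gene and cell barcode, as deposited, were made by the authors with Cell Ranger on the mm10 genome (GRCm38) plus a YFP sequence, and are not normalized. The submitters' processing notes name versions 3.0.2 and 3.1.0, and the methods another. Of 5421 barcodes, 5049 had at least 200 genes. Doublets (204, by the share of artificial doublets among neighbours) and 1024 cells beyond 3 median absolute deviations in UMIs, genes, mitochondrial or ribosomal-protein share were removed. Clustering used Seurat 5.3.0 and sctransform 0.4.2 in R 4.3.3, regressing on cell cycle scores and the mitochondrial share, with 3000 variable genes less the members (12 of which were among them), 30 components and resolution 0.8. A cluster was named if its markers had a mean log2 ratio of at least 1, with 3 or more seen in 25% of cells, except cluster 11, whose cells were shallow (median 3148 UMIs, against 12078 over all cells) and had no marker among the 10 leading genes. The sums, intervals and shares were computed with scipy 1.17.1 and numpy 2.4.6 in Python 3.11.15. All 33 members were named, and other genes by level or 2-fold difference. The computation of ratios was checked on simulated counts, drawn from a shared profile with known changes planted. Those counts had no spread between cells and no free RNA, so the check says nothing on the measured class differences. Retrocopies of Gapdh, Aldoa, Pgk1 and Eno1 could share reads with these genes. Members and lists were chosen with earlier results of these data known.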

Additional observations from a re-analysis of the deposited data

Results flagged for a closer look

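The 372 barcodes with fewer than 200 genes, which no comparison used, held 265 UMIs of the 33 genes, a signal outside the cells analysed. They had 1409901 UMIs in all, of which hemoglobin genes took 46.8%. The level of the 33 genes there was 188 CPM (95% Poisson interval 166 to 212), against 4968 CPM in all kept cells. The reason for this difference was not tested. The basigin gene Bsg gave 76 of these UMIs. Bpgm, a red cell enzyme outside the 33 genes, had 351 UMIs there.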

How the results depend on the processing

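No replicate could be left out, and no paired analysis was possible because there was 1 library and no test. The alternatives were run for 3 class ratios, 14 isozyme shares and 22 log2 differences of Leydig-like, Sertoli-like and germ-like cells (with shares of interstitial-like cells), and the log2 differences kept their sign. The 2-fold calls of the other 4 large classes, and those of the further genes outside the members in any class, were not recomputed. The sum in Leydig-like over interstitial-like cells (2.15 to 3.03) left its counting interval with 5 median absolute deviations (2.70), no outlier filter (2.70), no doublets removed (2.84), doublets removed at 2 times the rate (2.91), resolution 1.2 (2.88), cells classed singly (2.94), the mean of cells (2.53), thinning to 5000 UMIs (2.48), G1 cells (2.83), scaling without mitochondrial, hemoglobin and ribosomal-protein genes (2.58) and scaling by the median ratio of genes (3.03). With cluster 6 left out, chosen after seeing the data, it was 3.02, and without cluster 8 it was 2.15. In Sertoli-like cells it moved to 1.70 (no outlier filter), 1.66 (no doublets removed), 1.72 (cells classed singly), 1.80 (G1 cells) and 1.66 (without those gene groups). In germ-like cells it moved to 1.02 (cells classed singly), 1.08 (3000 UMIs), 1.14 (without those gene groups) and 1.27 (median ratio), a scaling that lowers the divisor of germ-like cells by 0.23 and of Leydig-like cells by 0.13 on the log2 scale. The Ldhb share moved to 90.4% (cells classed singly), 89.4% (3000 UMIs), 90.9% (G1 cells) and 91.3% (median of cells) in Sertoli-like cells. In Leydig-like cells it moved to 79.1% (5 deviations), 79% (no outlier filter), 80.8% (no doublets removed), 81.2% (mean of cells), 75.6% (without cluster 6) and 84.5% (without cluster 8). In germ-like cells it moved to 95.2% (cells classed singly), 97.2% (3000 UMIs) and 100% (median of cells), and in interstitial-like cells to 63.4% (G1 cells). For the other 10 isozyme shares, 21 of 175 recomputed values left the counting interval. The Slc16a3 share ran from 5.15 to 26.7% in germ-like and from 91.4 to 100% in Sertoli-like cells. The Hk2 share of interstitial-like cells ran from 24.6 to 33.9%. Of the counts past 2-fold, that of Leydig-like cells fell from 10 to 3 without cluster 8, which holds the steroidogenic cells, and was 13 without cluster 6. Counted as past 2-fold under every alternative were 3 of 10 members in Leydig-like, 3 of 4 in Sertoli-like and 4 of 6 in germ-like cells. Sertoli-like Hk1 had 0.89 on the log2 scale at 3000 UMIs. Germ-like Hk1 and Slc16a3 kept a log2 difference of at most -1.42 and -2.46, but fell under the minimum when it was raised to 50 CPM. The cause of the other moves was not tested. Of 440 recomputed log2 differences, 175 left the counting interval and 0 changed sign. Depth limits genes under 10 CPM and classes under 100 cells most.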
